A study of Mus musculus with 7 samples.

Results

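The Ifit family, *Isg15* with the genes that act on it, and the paired Apol9 genes were followed through every library of muscle stem cells (MuSCs) from WT and *Jag2sm* mice. The group was fixed by symbol and holds 10 of the 56748 genes listed in the count files: *Ifit1*, *Ifit2*, *Ifit3*, *Ifit3b*, *Isg15*, *Usp18*, *Herc6*, *Ifi35*, *Apol9a* and *Apol9b*. These genes were selected because several of them stood out as higher in *Jag2sm* in these same 7 libraries, so their difference between the genotypes is only described, and no test of it is used as support. RNA came from 3 WT and 4 *Jag2sm* samples of adult mice, and each gave 1 Nanopore direct cDNA library. The cells were taken from hind limb muscle by magnetic sorting, without CD31, CD45 and Sca1 and with Integrin α7, and were kept in growth medium with serum and bFGF. *Jag2* encodes a NOTCH ligand. *Jag2sm* mice are homozygous for a hypomorphic *Jag2* allele, of reduced function and not a deletion, although the labels write the genotype as *Jag2*-/-. The strain of the WT mice, the sex of the donors and whether each replicate came from its own animal are not given in the sources used here, so p-values measure the spread between these libraries, which may in part be technical.

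Type I interferons bind the receptor formed by IFNAR1 and IFNAR2, and the kinases JAK1 and TYK2 then pass the signal on to a transcription factor complex that contains IRF9. In the nucleus this complex binds the interferon-stimulated response element, or ISRE, near a large set of genes. IFIT proteins, coded by a cluster on chromosome 19, bind foreign RNA and restrict its translation. ISG15 is a ubiquitin-like protein that UBA7, UBE2L6 and ligases such as HERC6 attach to other proteins and that USP18 removes, while USP18 also dampens signalling from the receptor. IFI35 works together with NMI, and APOL9A and APOL9B belong to the apolipoprotein L family.

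The sequence just before the RefSeq start is shown for members whose RefSeq promoter window holds the core of the ISRE. Windows run from 250 bases before to 50 after each start and were taken from build GRCm38.p6. The members were grouped as genes of the interferon response, so a core in their promoters is not independent of that grouping. Each stretch was placed in GRCm39, the build of the count files, by exact match, and is written 5′ to 3′ on the strand of its gene. Capitals mark the core, GAAANNGAAA or its reverse TTTCNNTTTC.
*Ifit1*, chr19:34618160-34618238, plus strand: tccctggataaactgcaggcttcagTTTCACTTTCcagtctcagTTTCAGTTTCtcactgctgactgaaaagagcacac
*Ifit3*, chr19:34560748-34560841, plus strand: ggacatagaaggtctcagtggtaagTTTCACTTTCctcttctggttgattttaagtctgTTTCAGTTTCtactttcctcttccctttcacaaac
*Isg15*, chr4:156285307-156285378, minus strand: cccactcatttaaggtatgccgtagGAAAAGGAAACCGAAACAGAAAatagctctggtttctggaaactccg
*Apol9b*, chr15:77613210-77613260, plus strand: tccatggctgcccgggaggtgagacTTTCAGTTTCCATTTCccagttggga

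Windows were found for 9 of the 10 genes. The ISRE core lay in 6 of these 9: *Ifit1*, *Ifit3*, *Ifit3b*, *Isg15*, *Apol9a* and *Apol9b*. Of all 32851 windows 3.44% held it, or 3.99% of the 27025 genes with a window. *Ifit1* had a core 104 and another 85 bases before its start. In *Isg15*, 3 cores overlapped in a row and began 78, 72 and 66 bases before the start. The stretch printed for *Ifit3* occurred unchanged before *Ifit3b*, at chr19:34585144-34585237, and that of *Apol9b* unchanged before *Apol9a*, on the minus strand at chr15:77295314-77295364. GENCODE M39 starts both Apol9 genes inside the first core of that stretch, so by that annotation neither core lies wholly before the start. Each Apol9 gene has 2 RefSeq starts, which put its first core 105 or 59 bases before the start in *Apol9a* and 37 or 86 bases in *Apol9b*. The windows of *Ifit2*, *Herc6* and *Ifi35* held no exact core. With 1 mismatch allowed among the 8 fixed letters, all 9 matched, as did 35.4% of all windows. The gamma-activated site TTCNNNGAA, which reads the same on both strands, was found in *Ifit2* and *Ifi35* and in 8.30% of all windows. A match is a run of letters and was not read as a bound site.

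**Figure D1:**
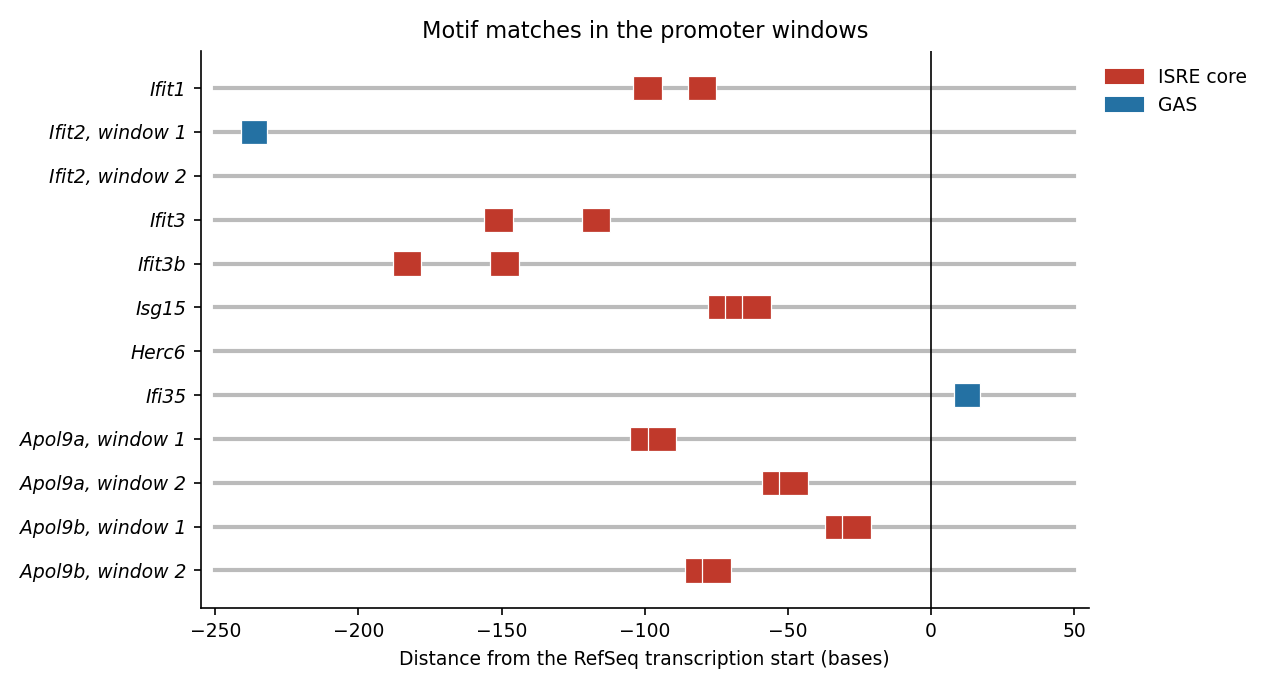
Matches to the ISRE core (red) and to the gamma-activated site (blue) in the RefSeq promoter windows of 9 genes, by distance in bases from the annotated start (vertical line); genes with a pair of starts have a row for each. The core lies before the RefSeq start in 6 genes, with 3 overlapping matches in *Isg15*.

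The depth of the libraries bears on every count below. Reads counted on genes came to 187834, 1657016 and 1159203 in WT replicates 1, 2 and 3. They came to 671660, 1421058, 1937581 and 1223863 in *Jag2sm* replicates 1, 2, 3 and 4. Levels are given as CPM, that is counts relative to a common library total, with the totals scaled by the TMM method of edgeR. On that scale 3 counts, taken as the limit that a count of 0 allows, made 16.9 CPM in WT replicate 1 and 1.45 to 4.16 CPM in the other 6 libraries. A 0 in WT replicate 1 therefore says little about a gene of low level. Floors and intervals cover counting error only, and intervals that pool libraries set no limit for the genotype.

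The libraries also differed in a way the genotype did not fully follow, and this came with the level of the genes described. The share of reads that did not align to the mouse genome was 50.8%, 46.7% and 46.0% in *Jag2sm* replicates 1, 2 and 4, against 3.07% in *Jag2sm* replicate 3 and 2.44% to 3.24% in WT. *Jag2sm* libraries are given below in that order, so replicate 3 comes last. What the unaligned reads are was not analysed here, and their part in the results below was not tested.

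The altered gene itself had 14, 176 and 122 counts in WT replicates 1, 2 and 3, or 79.0, 112 and 114 CPM. In *Jag2sm* replicates 1, 2, 4 and 3 the CPM of *Jag2* were 41.6, 77.4, 76.1 and 70.8. All *Jag2sm* libraries lay below all WT libraries, and the log2 fold change of *Jag2* was -0.64 (SE 0.243, adjusted p = 0.166, quasi-likelihood test of edgeR with Benjamini-Hochberg adjustment), which did not pass the threshold.

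Across the whole group, 9 of the 10 genes lay above every WT library in *Jag2sm* replicates 1, 2 and 4, and all 10 were lowest of *Jag2sm* in replicate 3. These orders, here and below, take a count of 0 as 0 CPM. Taken singly, replicates 1, 2 and 4 lay above every WT library in 30.5%, 29.6% and 29.3% of all genes tested. Of the 9, *Usp18* and *Herc6* did not pass the count filter. The level summed over the 10 genes was 22.6, 12.1 and 25.2 CPM in WT replicates 1, 2 and 3. In *Jag2sm* it was 424, 1680 and 751 CPM in replicates 1, 2 and 4 and 42.2 CPM in replicate 3. Without *Ifit2* the sums were 0, 8.91 and 10.3 CPM in WT, and 416, 1667, 734 and 33.9 CPM in *Jag2sm* in the same order. *Jag2sm* replicate 3, with its WT-like share of unaligned reads, thus lay above all 3 WT libraries and far below the other *Jag2sm* libraries. Among the 3 libraries rich in unaligned reads, at 46.0% to 50.8%, replicate 1 had the highest share and the lowest sum. The part of the unaligned reads in these levels was not tested.

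**Figure D2:**
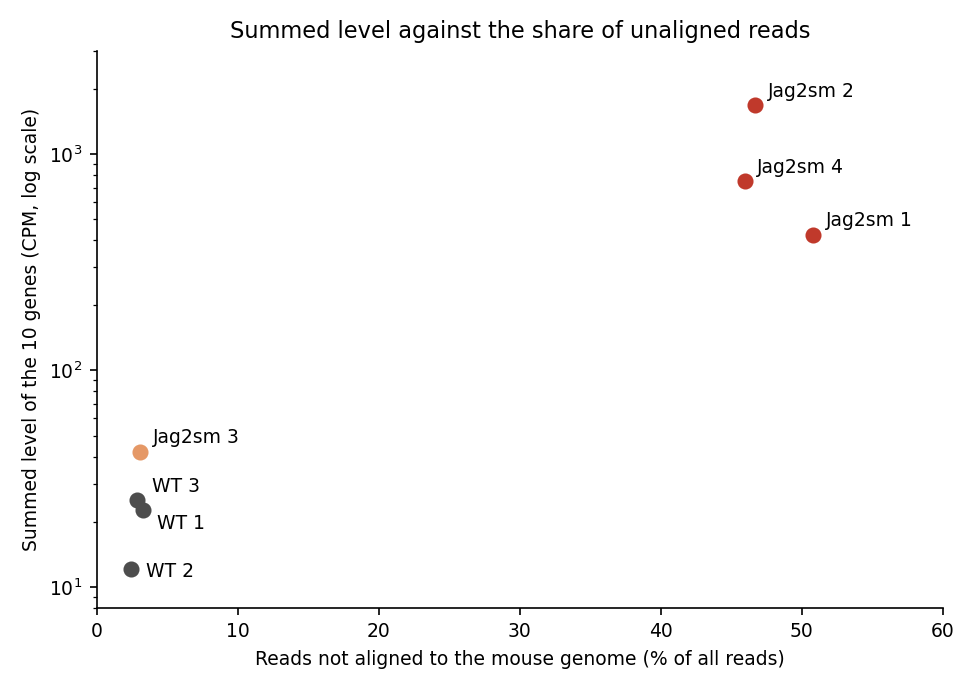
Level summed over the 10 genes (CPM, log scale) against the share of reads not aligned to the mouse genome (% of all reads), 1 point per library. *Jag2sm* replicates 1, 2 and 4 lie at 46.0% to 50.8% and 424 to 1680 CPM, and *Jag2sm* replicate 3 lies beside the WT libraries at 42.2 CPM.

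*Ifit1* (chr19:34618271-34632174, GRCm39, GENCODE M39), the member of the family that binds RNA lacking the host's cap methylation, had 0, 1 and 0 counts in WT replicates 1, 2 and 3. It had 55, 295 and 126 counts in *Jag2sm* replicates 1, 2 and 4, and 14 in replicate 3. In CPM these were 76.2, 200.3, 101 and 6.78. With a count of 0 taken as 0 the genotypes did not overlap, as in 10.2% of all genes tested. Replicate 3 was the lowest *Jag2sm* library, under the 16.9 CPM that the 0 in WT replicate 1 allows. The level of replicate 3 stood 19.1-fold over the pooled WT libraries (exact 95% interval 2.91 to 809), and that of replicate 2 stood 29.5-fold over replicate 3.

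*Ifit3* (chr19:34560899-34566443) and *Ifit3b* (chr19:34585328-34590801), near copies of each other that lie side by side in the cluster, gave 0, 1 and 2 counts and 0, 0 and 0 counts in WT replicates 1, 2 and 3. *Ifit3* had 34, 148 and 34 counts in *Jag2sm* replicates 1, 2 and 4 and 1 count in replicate 3. *Ifit3b* had 21, 52 and 23 counts in those libraries and 2 in replicate 3. For *Ifit3*, replicate 3 fell inside the WT range, with a ratio to pooled WT of 0.455 (exact 95% interval 0.00867 to 5.67). The pooled *Jag2sm* counts of *Ifit3b* stood 16.7-fold over a floor of 3 counts across the WT group. Their exact 95% interval over pooled WT began at 13.3-fold. These values cover counting error only and pool libraries from 0.969 to 35.3 CPM, so they set no lower limit for the genotype. In replicate 3 the 2 counts of *Ifit3b* were under that floor, so this library was not shown to lie above WT. Over 2042 aligned bases the transcripts of this pair were 97.5% identical, so the split of reads between them is uncertain.

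*Ifit2* (chr19:34527932-34554524), which lies in the same cluster, did not follow its relatives. It had 4, 5 and 16 counts in WT replicates 1, 2 and 3, or 22.6, 3.18 and 14.9 CPM. In *Jag2sm* replicates 1, 2, 4 and 3 it had 6, 19, 20 and 17 counts, or 8.31, 12.9, 16.0 and 8.24 CPM. Every *Jag2sm* library lay within the WT range, and the group means were 13.6 ± 9.77 CPM in WT (SD, n = 3) and 11.4 ± 3.79 CPM in *Jag2sm* (SD, n = 4). The ratio of the pooled *Jag2sm* to the pooled WT counts, which weights libraries by depth, was 1.27 (exact 95% interval 0.786 to 2.11).

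*Isg15* (chr4:156283883-156285303), coding for the ubiquitin-like modifier itself, was at 0, 6 and 3 counts in WT replicates 1, 2 and 3. It reached 101, 1327 and 458 counts in *Jag2sm* replicates 1, 2 and 4 and 18 in replicate 3, or 140, 901, 367 and 8.72 CPM. Again the genotypes did not overlap with a count of 0 taken as 0. *Jag2sm* replicate 3, at 8.72 CPM, lay under the 16.9 CPM that the 0 in WT replicate 1 allows. *Jag2sm* replicate 3 was 2.73-fold over pooled WT (exact 95% interval 1.17 to 6.90), where replicate 2 was 282-fold over it (148 to 618). Within *Jag2sm*, replicate 2 was 103-fold over replicate 3, a wider gap than the 29.5-fold of *Ifit1*.

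The enzymes around ISG15 were at low counts. *Usp18* (chr6:121222848-121247877), the protease that removes ISG15, had 0, 1 and 0 counts in WT replicates 1, 2 and 3, 4, 59 and 16 in *Jag2sm* replicates 1, 2 and 4, and 0 in replicate 3. The count of 0 in replicate 3 allows up to 1.45 CPM, below the 5.54 CPM of replicate 1. *Herc6* (chr6:57557932-57642597), a ligase for ISG15 in the mouse, had 0, 0 and 2 counts in WT and 3, 9, 3 and 2 counts in *Jag2sm* replicates 1, 2, 4 and 3. Its ratio over all libraries was 4.35 (exact 95% interval 1.03 to 38.8), while replicate 3 lay within the WT range. That interval pools libraries, with 9 of the 17 *Jag2sm* counts in replicate 2, so it sets no limit for the genotype. *Usp18* and *Herc6* were too low to pass the count filter. The exons of *Isg15*, *Usp18* and *Herc6* overlap those of *Gm46878*, *Gm44148* and *Gm45193*, each at 0 counts in all 7 libraries.

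*Ifi35* (chr11:101339221-101352693), the partner of *Nmi*, had 0, 2 and 3 counts in WT replicates 1, 2 and 3, and 13, 32, 23 and 7 in *Jag2sm* replicates 1, 2, 4 and 3. Its *Jag2sm* levels were 18.0, 21.7, 18.4 and 3.39 CPM, and replicates 1, 2 and 4 lay close together. All lay above WT with a count of 0 taken as 0. Replicate 3 lay under the 16.9 CPM that the 0 in WT replicate 1 allows. Over all libraries the ratio for *Ifi35* was 7.68 (exact 95% interval 3.15 to 24.3), which again pools libraries and sets no limit for the genotype. For replicate 3 alone the ratio to pooled WT was 1.91 (exact 95% interval 0.523 to 7.64). Its exons overlap those of *Vat1* on the opposite strand, and *Vat1* had 13, 58 and 43 counts in WT and 63, 78, 63 and 106 in *Jag2sm* replicates 1, 2, 4 and 3.

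*Apol9a* (chr15:77287989-77295335) had 0, 2 and 0 counts in WT replicates 1, 2 and 3, and 36, 242, 103 and 4 in *Jag2sm* replicates 1, 2, 4 and 3. *Apol9b* (chr15:77613239-77620585) had 0, 1 and 1 counts in WT, and 33, 291, 131 and 22 in the same *Jag2sm* libraries. With a count of 0 taken as 0 both genes separated the genotypes, but in replicate 3 *Apol9a* stood at 1.94 CPM and *Apol9b* at 10.7 CPM. Both levels lay under the 16.9 CPM that the 0 in WT replicate 1 allows. The ratio of replicate 3 to pooled WT was 2.73 for *Apol9a* (exact 95% interval 0.392 to 30.2) and 15.03 for *Apol9b* (3.69 to 132). Their transcripts were 98.4% identical over 1477 aligned bases, so the split of reads is uncertain here too. Of all counts on the 10 genes, the pair together took 29.9% in *Jag2sm* replicate 3 (exact 95% interval 20.5% to 40.6%). It took 22.5% (18.0% to 27.6%), 21.5% (19.9% to 23.2%) and 25.0% (22.2% to 27.9%) in replicates 1, 2 and 4, and these intervals overlap that of replicate 3. The share of *Isg15* was 20.7% (12.7% to 30.7%) in replicate 3, beside 33.0% (27.8% to 38.6%), 53.6% (51.6% to 55.6%) and 48.9% (45.6% to 52.1%) in replicates 1, 2 and 4.

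**Figure D3:**
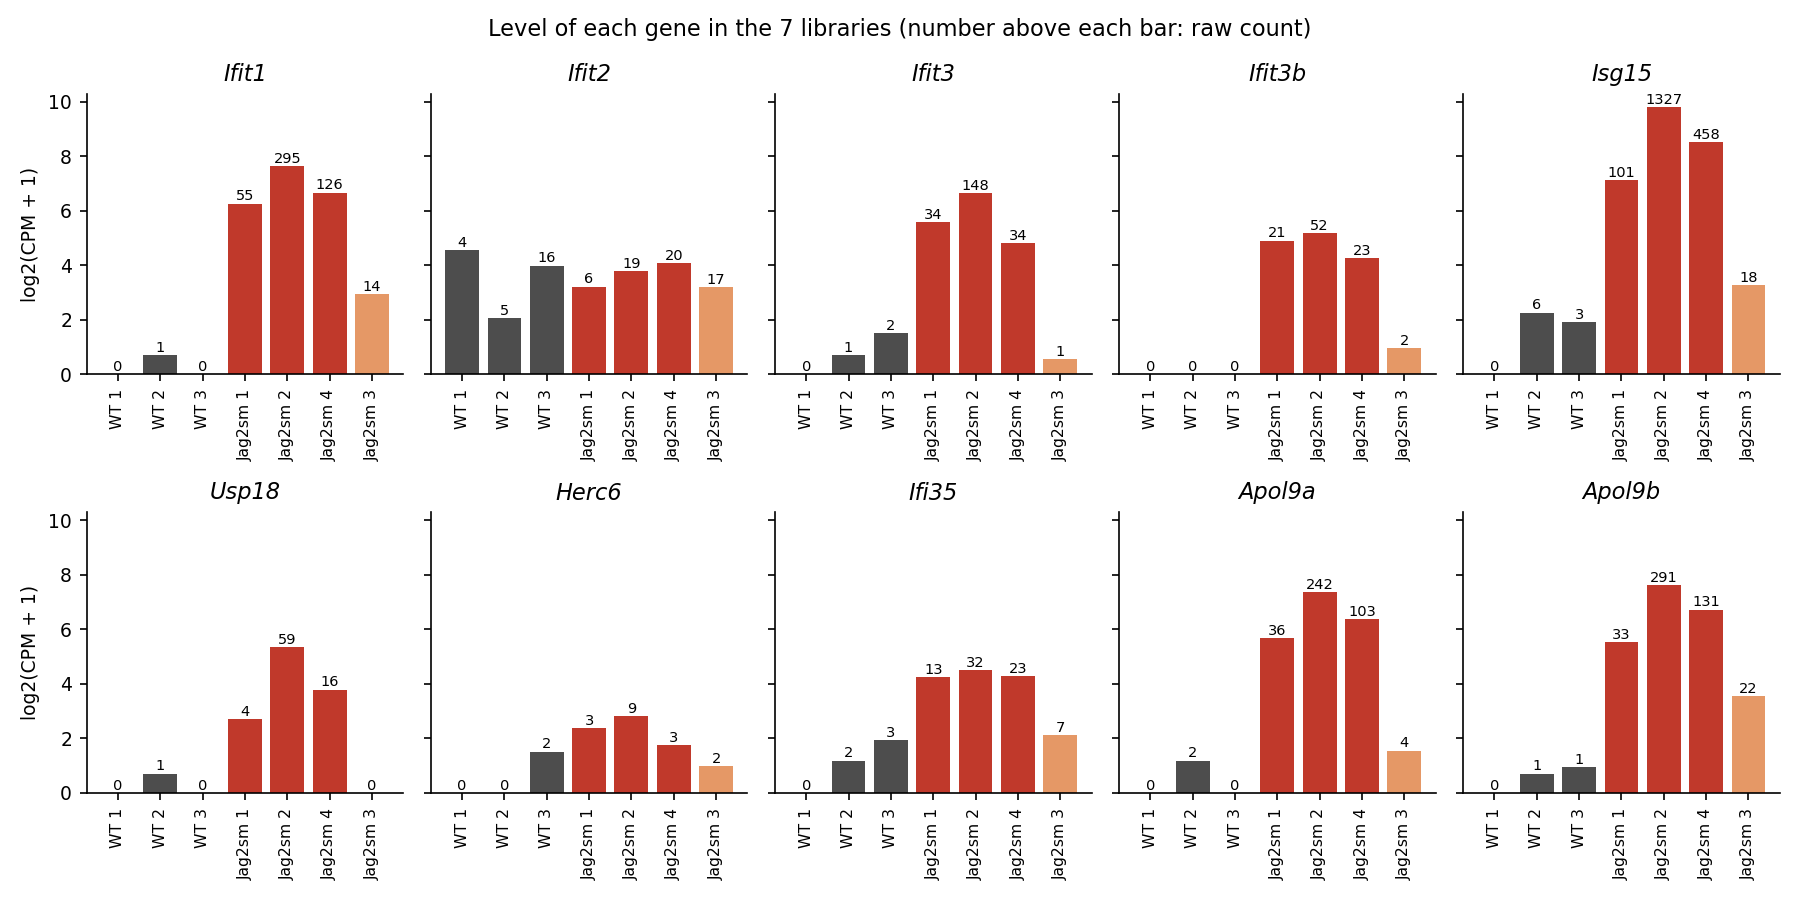
Level of each of the 10 genes in the 7 libraries, as log2(CPM + 1), with the raw count over each bar; grey is WT, red *Jag2sm*, and orange *Jag2sm* replicate 3, placed last by its share of unaligned reads. *Isg15* reaches 1327 counts in *Jag2sm* replicate 2 and 18 in replicate 3, while *Ifit2* shows no order by genotype.

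Counted together by CPM, with a count of 0 taken as 0, every *Jag2sm* library lay above every WT library in 6 of the 10 genes. Of all 9489 genes tested 10.2% did so. The 6 include *Ifit3b*, whose 2 counts in replicate 3 were under the floor, so for that library the order is not shown. All 6 had 0 counts in WT replicate 1, which allows up to 16.9 CPM. *Jag2sm* replicate 3 lay below that in each, at 0.969 to 10.7 CPM. Its order against WT replicate 1 is therefore not shown for any of the 6. *Jag2sm* replicates 1, 2 and 4 each lay above every WT library in 9 of the 10, all but *Ifit2*, against 30.5%, 29.6% and 29.3% of all genes. Replicate 3 lay above every WT library in 6, against 30.7% of all genes. Of the 8 members that passed the filter, 4 were called higher in the fit across all genes, namely *Ifit1*, *Isg15*, *Apol9a* and *Apol9b*, and 0 lower. Of all genes tested 1.42% were called higher and 4.84% lower. The 4 called members had 1, 9, 2 and 2 counts over the 3 WT libraries and passed the filter through *Jag2sm*. Because the genes were picked on this contrast, the calls restate that choice, and nothing is read from these counts against those shares. *Jag2sm* replicate 2 had the highest CPM in 9 genes and replicate 3 the lowest of the *Jag2sm* libraries in all 10, and 6 genes ran from high to low as replicate 2, 4, 1 and 3.

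The labels give each library a batch number equal to its replicate number, so that WT and *Jag2sm* replicates 1, 2 and 3 can be set against each other. The median over the 10 genes of the log2 CPM difference, *Jag2sm* less WT, was 4.51 in batch 1 and 4.96 in batch 2, with 9 and 10 genes above 0. In WT replicate 1, where the floor is 16.9 CPM, 9 of the 10 genes had 0 counts. The size of the batch 1 differences therefore depends on the prior count of 2 used for log2 CPM. In batch 3 the median was 0.42 (range -0.74 to 2.33), with 6 genes above 0. Over all tested genes the medians were 0.13, 0.01 and -0.00. In batch 3 *Ifit1* kept a difference of 2.33 and *Apol9b* of 2.24, while *Isg15* was at 1.21, *Ifit3* at -0.71 and *Ifit2* at -0.74. *Jag2sm* replicate 4 has no WT partner.

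The rest of the interferon pathway was read from lists of known pathway genes, drawn up with earlier results of these data known. Among 21 interferon ligand genes, 19 had 0 counts in all 7 libraries. The exceptions were *Ifnb1*, the gene of interferon beta, with 1 count in *Jag2sm* replicate 2, and *Ifnz*, with 2 counts in *Jag2sm* replicate 3. The limit on a ligand at 0 is the floor of each library given above. Transcripts of the interferons themselves were therefore at or under the floor in these cells at this depth.

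Of the receptor and signalling genes, 13 are reported, all tested. In the main edgeR fit 0 of them were called in either direction, where 1.42% of all genes were called higher and 4.84% lower. An unadjusted p under 0.05 was found for 3 of the 13, and for 19.7% of all genes. Their median log2 fold change was 0.29, beside 0.05 over all genes tested. *Irf7*, the interferon-induced amplifier of the response, had 0, 4 and 3 counts in WT replicates 1, 2 and 3 and 23, 289, 86 and 5 in *Jag2sm* replicates 1, 2, 4 and 3. For *Irf7* the log2 fold change was 4.88 (SE 1.42, adjusted p = 0.0713, edgeR), and replicate 3 at 2.42 CPM lay inside the WT range. *Irf9* gave 2.47 (adjusted p = 0.0859, edgeR) and *Stat2* 0.73 (adjusted p = 0.644, edgeR), and neither passed in the main fit. With the libraries paired by batch number, as a block in the fit, *Irf7* and *Irf9* passed (adjusted p = 0.0162 and 0.0189, edgeR). That fit draws the genotype difference from replicates 1, 2 and 3 alone, since *Jag2sm* replicate 4 has no WT partner. *Stat2* did not pass with the block (adjusted p = 0.706, edgeR). *Irf1*, an interferon-induced transcription factor, had 0, 5 and 4 counts in WT and 9, 28, 17 and 15 in *Jag2sm* replicates 1, 2, 4 and 3. With a count of 0 taken as 0, all its *Jag2sm* libraries lay above WT in CPM, and its log2 fold change was 2.01 (SE 0.543, adjusted p = 0.0558, edgeR). The receptor chain *Ifnar1* was at 36.2 ± 3.41 CPM in WT (SD, n = 3) and 41.4 ± 2.88 CPM in *Jag2sm* (SD, n = 4), with a log2 fold change of 0.23 (SE 0.213, adjusted p = 0.614, edgeR). *Ifngr2* and *Jak2* did not pass either, at log2 fold changes of 0.29 and 0.65.

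A further list of 9 genes held *Uba7*, *Ube2l6*, *Trim25* and *Arih1*, which act in ISG15 attachment, *Nmi*, and *Herc1*, *Herc2*, *Herc3* and *Herc4*, included as relatives of *Herc6* and not as enzymes of ISG15. Of these, 7 were tested and 0 were called by edgeR in either direction, beside the same 1.42% and 4.84%. An unadjusted p under 0.05 was found for 3, beside the 19.7% of all genes, and the median log2 fold change was -0.35, with the HERC relatives and *Arih1* at or below 0. *Ube2l6*, the conjugating enzyme for ISG15, was at 3.45 ± 1.95 CPM in WT (SD, n = 3) and 16.4 ± 15.8 CPM in *Jag2sm* (SD, n = 4), with a log2 fold change of 2.63 (SE 1.06, adjusted p = 0.193, edgeR). *Trim25*, a ligase that is itself interferon-induced, gave 1.50 (SE 0.461, adjusted p = 0.0875, edgeR). *Nmi*, the partner of *Ifi35*, was too low to test, with 0 counts in each WT library and 2, 21, 11 and 10 in *Jag2sm* replicates 1, 2, 4 and 3. *Uba7*, the activating enzyme, had at most 4 counts in a library. *Arih1*, *Herc1*, *Herc2* and *Herc4* had log2 fold changes of -0.35, -0.54, -0.00 and -0.35. *Herc3* gave -2.14 (SE 0.738, adjusted p = 0.125, edgeR), with 4, 19 and 16 counts in WT and 9, 3, 3 and 1 in *Jag2sm* replicates 1, 2, 4 and 3. The Ifit and Apol relatives, 14 of 15 found in the files, held at most 4 counts in a library and none could be tested.

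The other interferon-stimulated genes were 44 in all. Of the 24 that were tested, 10 were called higher and 0 lower, where 1.42% and 4.84% of all genes were, all 24 had a positive log2 fold change, and the median was 4.07, beside 0.05 over all genes tested. The filter kept genes with counts in enough libraries of either genotype, so a gene low in WT entered through its *Jag2sm* counts. At most 3 counts over all WT libraries were found in 11 of the 24, whose sign and size follow in part from this filter, and nothing is read from the tally of the 24 against all genes. The 9 with at least 10 counts over WT, a limit chosen after the values were seen, had log2 fold changes of 0.82 to 5.54, and 6 of them were called. The called genes were *Bst2*, *Ifitm2*, *Ifitm3*, *Xaf1*, *Rtp4*, *Samd9l*, *Lgals3bp*, *Tap1*, *Psmb8* and *B2m*. Summed over the list, the level was 372, 639 and 603 CPM in WT replicates 1, 2 and 3, and 3005, 6592, 4022 and 926 CPM in *Jag2sm* replicates 1, 2, 4 and 3. Replicates 1, 2 and 4 each lay above every WT library in 24 of the 24 tested genes, against 30.5%, 29.6% and 29.3% of all genes, and replicate 3 in 17, against 30.7%. Over all 44 listed genes, tested or not, this held for 35, 41 and 43 genes in replicates 1, 2 and 4 and for 19 in replicate 3.

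*Bst2*, coding for the membrane protein tetherin, was at 4.82 ± 4.18 CPM in WT (SD, n = 3) and 309 ± 327 CPM in *Jag2sm* (SD, n = 4), with a log2 fold change of 5.54 (SE 1.29, adjusted p = 0.0298, edgeR). Its counts were 0, 11 and 8 in WT replicates 1, 2 and 3, and 78, 1098, 461 and 28 in *Jag2sm* replicates 1, 2, 4 and 3. *Rtp4*, an interferon-induced chaperone of receptor transport, rose by a log2 fold change of 5.17 (SE 1.33, adjusted p = 0.0456, edgeR). *Samd9l*, an antiviral factor, had a fitted log2 fold change of 4.96 (SE 1.15, adjusted p = 0.0294, edgeR). It was at 9.69 CPM in *Jag2sm* replicate 3, level with 9.61 CPM in replicate 4. *Psmb8*, a subunit of the immunoproteasome, had a fitted log2 fold change of 4.40 (SE 1.07, adjusted p = 0.0346, edgeR). *Samd9l* and *Psmb8* had 1 and 2 counts over all WT libraries and entered the test through their *Jag2sm* counts, so nothing is read from their calls. The calls of *Bst2*, *Rtp4*, *Samd9l* and *Psmb8* were each lost without WT replicate 1, 2 or 3 and by limma-voom. Among abundant genes not called, *Eif2ak2*, the RNA-activated kinase PKR, gave a log2 fold change of 2.50 (SE 0.666, adjusted p = 0.0527, edgeR). *Irgm1*, an interferon-induced GTPase, gave 3.28 (SE 0.870, adjusted p = 0.0518, edgeR), *Oasl2* 5.60 (SE 1.61, adjusted p = 0.0682, edgeR) and *Ifi27* 0.82 (SE 0.276, adjusted p = 0.116, edgeR). With the batch block in the fit, which rests on replicates 1, 2 and 3, *Eif2ak2*, *Irgm1* and *Oasl2* passed (adjusted p = 0.0189, 0.0248 and 0.0211, edgeR). *Ifi27* did not (adjusted p = 0.319, edgeR). The ISRE core was in 17 of the 31 genes of this list with a promoter window, or 54.8%.

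Over the 5 pathway lists as reported here, 10 of 44 tested genes were called higher and 0 lower, beside the 1.42% and 4.84% of all genes, and 30 had an unadjusted p under 0.05, beside 19.7% of all genes. Pairing the libraries by batch number, as a block in a fit that rests on replicates 1, 2 and 3, gave 20 called higher, 8 of them among the 10. The number called moved with single libraries, as did the number tested. Without WT replicates 1, 2 or 3 it was 3, 1 and 1, each of 53 tested. Without *Jag2sm* replicates 1, 2 or 4 it was 5 of 30, 1 of 26 and 4 of 27, and without *Jag2sm* replicate 3 it was 27 of 41. The log2 fold change of *Bst2* stayed at 4.62 to 5.95 with a library left out. Its call was lost without WT replicates 1, 2 or 3 (adjusted p = 0.0849, 0.1185 and 0.1237, edgeR) and without *Jag2sm* replicate 2 (adjusted p = 0.0665, edgeR). It held without *Jag2sm* replicates 1, 3 or 4. By limma-voom the call was also lost (adjusted p = 0.280). The log2 fold change of *Samd9l*, with 1 count over WT, ran from 4.00 to 7.11 where it was tested.

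**Figure D4:**
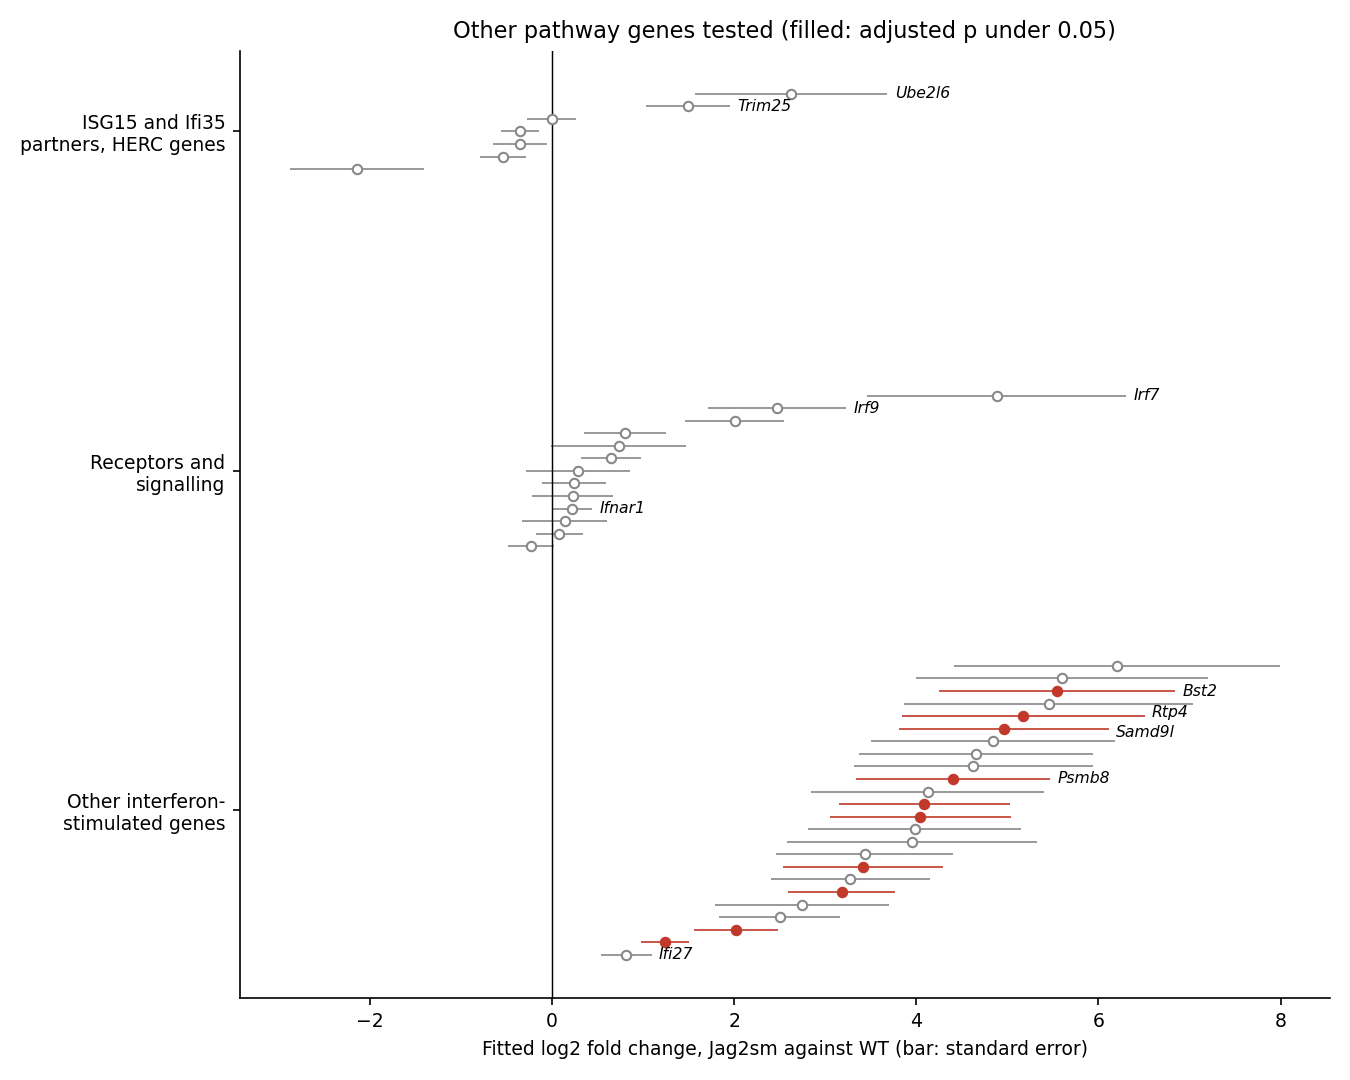
Fitted log2 fold change, *Jag2sm* against WT, with its standard error (bar), for the 44 tested genes of 3 pathway lists; filled points have an adjusted p under 0.05 (edgeR) and some of the genes named in the text are labelled. All 24 other interferon-stimulated genes and 12 of the 13 receptor and signalling genes lie to the right of 0, with *Irf7* the farthest right of the latter, as do 2 of the 7 tested genes of the ISG15, *Ifi35* and HERC list, *Ube2l6* and *Trim25*.

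Outside the 10 genes, the 9481 other tested genes were ranked by the Pearson correlation of their log2 CPM with the mean standardised profile of the 8 tested members over the 7 libraries. The libraries fall into the clusters described above, so the coefficient describes likeness and has no p. The 10 most alike were *Ifi44* (r = 0.990), *Lgals3bp*, *Rsad2*, *Irgm1*, *Rtp4*, *Rnf213*, *Ifih1*, *Tapbp*, *Phf11d* and *Zbp1* (r = 0.979). Of these, 7 were in the pathway lists, and *Rnf213*, *Tapbp* and *Phf11d* were in none. All 10 had their highest level in *Jag2sm* replicate 2. *Rnf213*, coding for a large ubiquitin ligase, stood at 11.3, 10.8 and 16.8 CPM in WT and at 66.5, 230, 111 and 28.6 CPM in *Jag2sm* replicates 1, 2, 4 and 3. *Tapbp*, which loads peptides on MHC class I, stood at 5.64, 6.37 and 10.3 CPM in WT and 26.3, 57.7, 36.0 and 13.1 CPM in the same *Jag2sm* libraries. In both genes replicate 3 was above WT and below the other *Jag2sm* libraries. By CPM this was so in 6 of the 10, among them *Ifit3b*, with only 2 counts in replicate 3. Within the group, 7 tested members had r of 0.961 to 0.981 with the mean profile, of which they are a part, and *Ifit2* had 0.226.

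**Figure D5:**
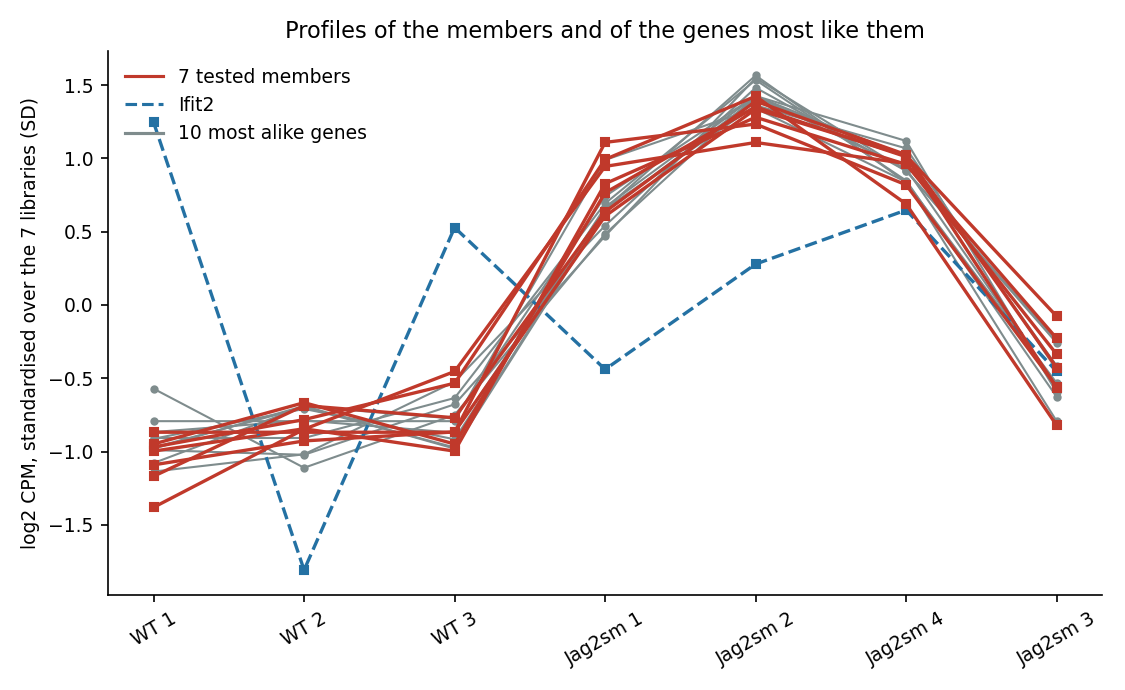
Standardised log2 CPM (SD units over the 7 libraries) of 7 tested members (red), of *Ifit2* (blue, dashed) and of the 10 most alike other genes (grey), with *Jag2sm* replicate 3 placed last; lines join the libraries for reading only. The red and grey lines run together, highest in *Jag2sm* replicate 2, and *Ifit2* departs from them.

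The cells were checked against marker lists for the labelled cell type and for others that a sort can carry. Myogenic markers were present in all libraries, with a summed level of 8323, 5230 and 5824 CPM in WT replicates 1, 2 and 3 and 2508, 2288, 3163 and 1975 CPM in *Jag2sm* replicates 1, 2, 4 and 3. *Myog* and *Des*, a differentiation factor and the muscle intermediate filament, were called lower in *Jag2sm*, with log2 fold changes of -2.33 (adjusted p = 0.0300, edgeR) and -1.63 (adjusted p = 0.0244, edgeR). Both were low in *Jag2sm* replicate 3 too, where *Myog* had its lowest level, 109 CPM, so the *Jag2sm* library lowest in *Myog* was also the lowest in the 10 genes. *Myod1*, *Pax7*, *Cdh15* and *Itga7* did not pass the test. In RNA of whole samples, fewer cells of a type and less RNA per cell cannot be told apart.

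Of 12 immune markers, 6 were at 0 in all 7 libraries, among them the pan-leukocyte gene *Ptprc* and the macrophage genes *Adgre1* and *Lyz2*. The summed level of the immune list was 0, 3.18 and 5.60 CPM in WT and 2.77, 4.07, 4.81 and 0.969 CPM in *Jag2sm* replicates 1, 2, 4 and 3, with *Cd68* the most abundant. The endothelial markers *Kdr* and *Tie1* were at 0 in every library, and the endothelial list summed to 2.40 to 13.9 CPM. The fibro-adipogenic gene *Col3a1* was at 124 ± 89.4 CPM in WT (SD, n = 3) and 257 ± 78.0 CPM in *Jag2sm* (SD, n = 4) and was not called (adjusted p = 0.262, edgeR), while *Lum* and *Dpt* were at 0. *Rgs5*, a mural gene, had 456 counts in *Jag2sm* replicate 1 and 2 to 82 counts elsewhere. *Abcc9*, also mural, and *Scx*, a tenocyte factor, were called lower in *Jag2sm*, at log2 fold changes of -3.71 (adjusted p = 0.0139, edgeR) and -1.34 (adjusted p = 0.0223, edgeR). Glial markers summed to 0 to 12.5 CPM. The part of other cell types in the level of the 10 genes was not tested beyond these values.

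Sex-linked genes divided the libraries in another way. *Xist*, transcribed from the inactive X chromosome, had 75, 1 and 0 counts in WT replicates 1, 2 and 3 and 155, 4, 2 and 631 in *Jag2sm* replicates 1, 2, 4 and 3. *Ddx3y*, on the Y chromosome, had 0, 85 and 49 counts in WT and 0, 51, 53 and 0 in the same *Jag2sm* libraries. *Jag2sm* replicates 1 and 3 were thus alike in these genes and far apart in the 10 genes described. The part of sex in the level of these genes was not tested.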

How the data were processed

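RNA of 7 MuSC samples (3 WT, 4 homozygous *Jag2sm*) was read as Nanopore direct cDNA. The authors called bases with dorado, used minimap2 2.17 for alignment to GRCm39 and HTSeq for counting, and deposited raw counts per gene without normalization, from 187834 to 1937581 per library. The version and strand setting of HTSeq and the annotation release are not given in the sources used here, so overlapping genes and near copies are uncertain. The 5 summary rows of each file went into no test. A deposited table of the authors' own comparison holds fold changes and p-values from DESeq2 and was not used. Levels were compared within genes only.

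Of the identifiers, 56017 were found in GENCODE M39. The tests used edgeR 4.0.16 in R 4.3.3 (filterByExpr, minimum count 10 and total 15, leaving 9489 genes; TMM; glmQLFit and glmQLFTest without covariates; Benjamini-Hochberg; calls at adjusted p under 0.05). log2 CPM used a prior count of 2. Ratios to pooled WT used summed counts over summed TMM-scaled totals, and on unscaled totals they were 1.09 to 1.15 times as large. Exact intervals at 95% came from SciPy 1.17.1 in Python 3.11.15. DESeq2 1.42.0 and limma-voom (limma 3.58.1) were alternatives, with DESeq2 size factors, library size alone, no filter, thinning to 187834 counts, the replicate block and each library left out.

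Replicate numbers equal the labels' batch numbers and pair WT with *Jag2sm* replicates 1 to 3. Deviations from the genotype means correlated at 0.0742, 0.0143 and 0.0541 within the pairs, across genes, which are not independent. Between WT and *Jag2sm* libraries of unlike number the correlations ran from -0.0945 to 0.0646. In the fit with the block, *Jag2sm* replicate 4 adds nothing to the genotype difference. The main fit had no block, after the study's methods.

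The members and lists were chosen with earlier results of these data known. Named are all 10 members, *Jag2*, per list the 4 called genes of largest change and up to 4 abundant uncalled genes, key genes of the pathway, and the 10 genes of most alike profile. All 10 called genes of the interferon-stimulated list were named after their values were seen, as were *Irf1*, *Herc3*, *Herc4*, the markers cited for counts of 0 and *Cd68*. A gene of the signalling list is not reported here and was left out of its counts. Protein sequences were not analysed here.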

Additional observations from a re-analysis of the deposited data

Results flagged for a closer look

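In the *Jag2sm* group, replicate 3 lay far from the other libraries in its share of unaligned reads. Its gap to the nearest library, divided by the whole range, was 0.8981, and Dixon's 95% critical value for a group of this size was exceeded. The unaligned reads were outside every comparison of genes, and their share was 50.82%, 46.68% and 45.95% of all reads in *Jag2sm* replicates 1, 2 and 4, above the 2.44% to 3.24% of WT. These are the 3 libraries in which 9 of the 10 genes, all but *Ifit2*, lay above every WT library, as did 29.3% to 30.5% of all genes tested in each. The part of the unaligned reads in that was not tested.

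In the share of gene counts on mitochondrial genes, *Jag2sm* replicate 1 was the distant library, at 6.05% against 10.1% to 10.7% in the other *Jag2sm* libraries, with a gap of 0.8677 of the range. In all 39 such checks were made and 2 stood out, where chance gives about 1 in 20.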

How the results depend on the processing

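*Jag2* stayed below 0 and short of the threshold in every alternative, and 6 members kept the ISRE core, or 9 with 1 mismatch. The 594 genes called became 1248 with no filter on low counts, 261 with counts thinned to the shallowest library, and 251 to 616 with a library left out. Calls higher in *Jag2sm* (135) became 241 with library size alone, 468 with no filter, 206 by DESeq2, 56 after thinning and 20 to 220 with a library left out. Calls lower (459) became 780 with no filter, 205 after thinning and 221 to 466. The 10 pathway genes called higher became 37 with no filter, 23 by DESeq2, 3 by limma-voom, 4 after thinning and 1 to 27 with a library left out. Those called lower (0) became 1 with no filter and by limma-voom, and 0 to 1 with a library left out. The 4 members called higher became 8 with no filter, 7 by DESeq2, 0 by limma-voom and 0 to 7 with a library left out. The 4 marker genes called became 7 with no filter, 2 after thinning and 1 to 4. The cause of these shifts was not tested.

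In the fit with a replicate block, which pairs the libraries, 20 pathway genes and 6 members were called higher, and no other count moved by over 1.5 times. No called result changed its direction. The fitted log2 difference of *Ifit2*, 0.18, turned to -0.56 without WT replicate 2 and to -0.01 without *Jag2sm* replicate 4. Of the values of other single genes under each alternative, 180 kept their side of the threshold, 52 passed it where they had not and 28 lost it. Of the members' fitted differences, which have no test, 84 stayed close in size and 8 moved. The shallow WT replicate 1, where 3 counts make 16.9 CPM, limits what can be said of low genes in WT.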

Other observations

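The 20 other interferon-stimulated genes that were too low to test had 1, 22 and 19 counts in all in WT replicates 1, 2 and 3, and 34, 427, 223 and 19 in *Jag2sm* replicates 1, 2, 4 and 3. Of these genes, 11, 17 and 19 lay above every WT library in *Jag2sm* replicates 1, 2 and 4, and 2 did in replicate 3, where 13 were at 0. Of all genes tested, 30.5%, 29.6%, 29.3% and 30.7% did so in *Jag2sm* replicates 1, 2, 4 and 3. *Oas1a*, an RNA sensor of the Oas family, had 0 counts in each WT library and 3, 59, 17 and 0 counts in *Jag2sm* replicates 1, 2, 4 and 3. *Ifi27l2a* had 0, 2 and 1 counts in WT and 1, 92, 75 and 0 in the same order. *Igtp*, an interferon-induced GTPase, differed from these, with 1, 8 and 9 counts in WT and 4, 32, 13 and 3 in the same *Jag2sm* libraries, so that replicates 1 and 3 did not exceed WT in CPM. *Mx1* and *Ifi44l* had a single count each over all 7 libraries, and *Trim30a* had 1 count in WT replicate 3 and 1, 0, 2 and 0 in *Jag2sm*. The genes named here were chosen after their values were seen.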
